A study of Mus musculus with 12 samples.

Results

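The contractile apparatus of smooth muscle was followed in the mouse aortic arch through 10 genes, Acta2, Actg2, Tagln, Cnn1, Lmod1, Smtn, Myh11, Myl9, Mylk and Ppp1r14a. Its members were taken by name from the annotation of the array, older symbols included, which gave 14 probes, all with a value on every array. Acta2 and Tagln had 2 probes each, Mylk had 3, and the other genes had 1. The 10 genes stand among 19705 genes with a value on every array. RNA was measured on 12 two-colour arrays, with 3 pools in each of 4 groups. Apoe-/- mice, also labelled as of strain C57BL/6, had eaten a high-fat diet for 8 weeks (pools 1 to 3), 16 weeks (pools 4 to 6) or 24 weeks (pools 10 to 12). Wild type mice of that strain (pools 16 to 18) had eaten it for 16 weeks. The labels mark every Apoe-/- pool as no drug, and name neither drug nor vehicle for the wild type pools. All mice started the diet, which held 21% fat and 0.15% cholesterol, at 8 weeks of age, so they were 16, 24 and 32 weeks old after 8, 16 and 24 weeks of it. Each pool held the arches of 3 mice, pool 2 those of 2, and 9 mice per time point are stated in the series' design. Age and length of diet cannot be told apart between the Apoe-/- groups, and the 8-week and 24-week groups differed from wild type in age and length of diet as well as in genotype.

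Smooth muscle contracts when calcium-bound calmodulin activates myosin light chain kinase (Mylk), which phosphorylates the regulatory light chain (Myl9) of smooth muscle myosin (heavy chain Myh11) and lets it pull on filaments of smooth muscle actin (Acta2, Actg2). Myosin phosphatase reverses this step, and Ppp1r14a, also called CPI-17, inhibits the phosphatase. Calponin (Cnn1), transgelin (Tagln, also called SM22 alpha), smoothelin (Smtn) and leiomodin (Lmod1) bind actin filaments. In the arterial wall these genes are textbook markers of the contractile muscle cells of the media, and muscle cells in atherosclerotic plaques are known to express less of them. Many of them are known targets of serum response factor and its partner myocardin, which act through a DNA element called the CArG box.

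Promoter windows from RefSeq (GRCm38.p6, 250 bases before to 50 after the annotated start) were at hand for 7 of the 10 genes, namely Acta2, Cnn1, Smtn, Myl9, Mylk, Lmod1 and Ppp1r14a. They were searched on both strands for a CArG box, which is CC, 6 bases of A or T, and GG, and for a CArG-like box, in which 1 of the 6 middle bases may be G or C. Each CArG box therefore also counts as CArG-like. CArG-like boxes lay in 2 of the 7 windows, those of Acta2 and Myl9, against 9.98% of all 32851 windows. The strict CArG box was found in 1 of the 7, that of Myl9, against 1.63% of all windows. The 2 windows that hold such boxes are printed here, for the smooth muscle actin and for the light chain that the kinase phosphorylates, with the boxes in capitals. That of Acta2 lies at chr19:34255324-34255623 on the minus strand and that of Myl9 at chr2:156775214-156775513 on the plus strand.

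Acta2: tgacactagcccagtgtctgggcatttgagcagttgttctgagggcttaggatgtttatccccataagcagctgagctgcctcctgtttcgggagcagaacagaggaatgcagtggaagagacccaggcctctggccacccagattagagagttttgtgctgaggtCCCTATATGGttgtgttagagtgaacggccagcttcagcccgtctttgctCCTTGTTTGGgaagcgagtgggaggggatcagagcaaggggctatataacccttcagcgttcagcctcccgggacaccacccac

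Myl9: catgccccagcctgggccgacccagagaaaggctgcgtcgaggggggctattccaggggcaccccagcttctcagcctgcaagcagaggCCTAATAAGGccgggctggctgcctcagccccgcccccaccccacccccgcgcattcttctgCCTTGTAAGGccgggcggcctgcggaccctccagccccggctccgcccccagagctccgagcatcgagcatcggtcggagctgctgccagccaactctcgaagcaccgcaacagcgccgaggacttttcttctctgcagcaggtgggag

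The boxes of Acta2 begin 84 and 34 bases before the start and read CCCTATATGG and CCTTGTTTGG. In Myl9 they begin 161 and 99 bases before it and read CCTAATAAGG and CCTTGTAAGG. A match is a description of the letters in the window and says nothing on binding.

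All values are log2 ratios of a pool (Cy5) to a common reference (Cy3). This reference was Apoe-/- arch RNA in which each diet time had an equal share, from 21 mice by its label. Its label calls it a vehicle pool, while the Apoe-/- pools set against it are marked as no drug. A ratio of 0 thus means the level of this Apoe-/- reference, and ratios of different genes are no measure of which gene is more abundant. Apoe had ratios between -0.20 and 0.23 in the 9 Apoe-/- pools, against 2.62, 2.01 and 2.85 in wild type pools 16, 17 and 18, and the labels of genotype held in all 12 pools by that measure. Its 1 probe may or may not lie in the deleted part of the gene, on which the sources used here are silent. Over all probes, arrays of the 24-week group had a negative median correlation with those of each other group, although pairs with 16-week arrays reached r = 0.051. The median r was -0.535 against 8 weeks, -0.328 against 16 weeks and -0.431 against wild type. Since the reference mixes the diet times in equal shares, ratios of the Apoe-/- groups tend to balance around 0. A negative r between those groups can follow from that design and is no measure of opposite expression. The labels state the dyes, and the direction was kept. The interquartile range of ratios was 0.466 in pool 2, the widest of the 12, and 0.297 in pool 18, the widest of wild type.

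The contractile genes were lower in the Apoe-/- arch the longer the diet had lasted. Their mean log2 ratio was 0.45, 0.67 and 0.42 in pools 1 to 3 at 8 weeks, 0.12, 0.07 and 0.11 in pools 4 to 6 at 16 weeks and -0.28, -0.44 and -0.54 in pools 10 to 12 at 24 weeks, against 0.74, 0.81 and 0.63 in wild type pools 16 to 18. The groups overlapped in this mean only between 8 weeks and wild type, where pool 2 lay above pool 18. Markers of macrophages moved the other way. The mean over 15 such markers was -1.52, -1.81 and -2.01 in pools 1 to 3, -0.71, -0.20 and -0.58 in pools 4 to 6 and 0.49, 0.54 and 0.35 in pools 10 to 12, against -2.89, -3.10 and -2.71 in wild type. In RNA of whole arches, fewer muscle cells and less of a transcript per muscle cell cannot be told apart, and the part of the macrophage RNA in these results was not tested.

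**Figure D1:**
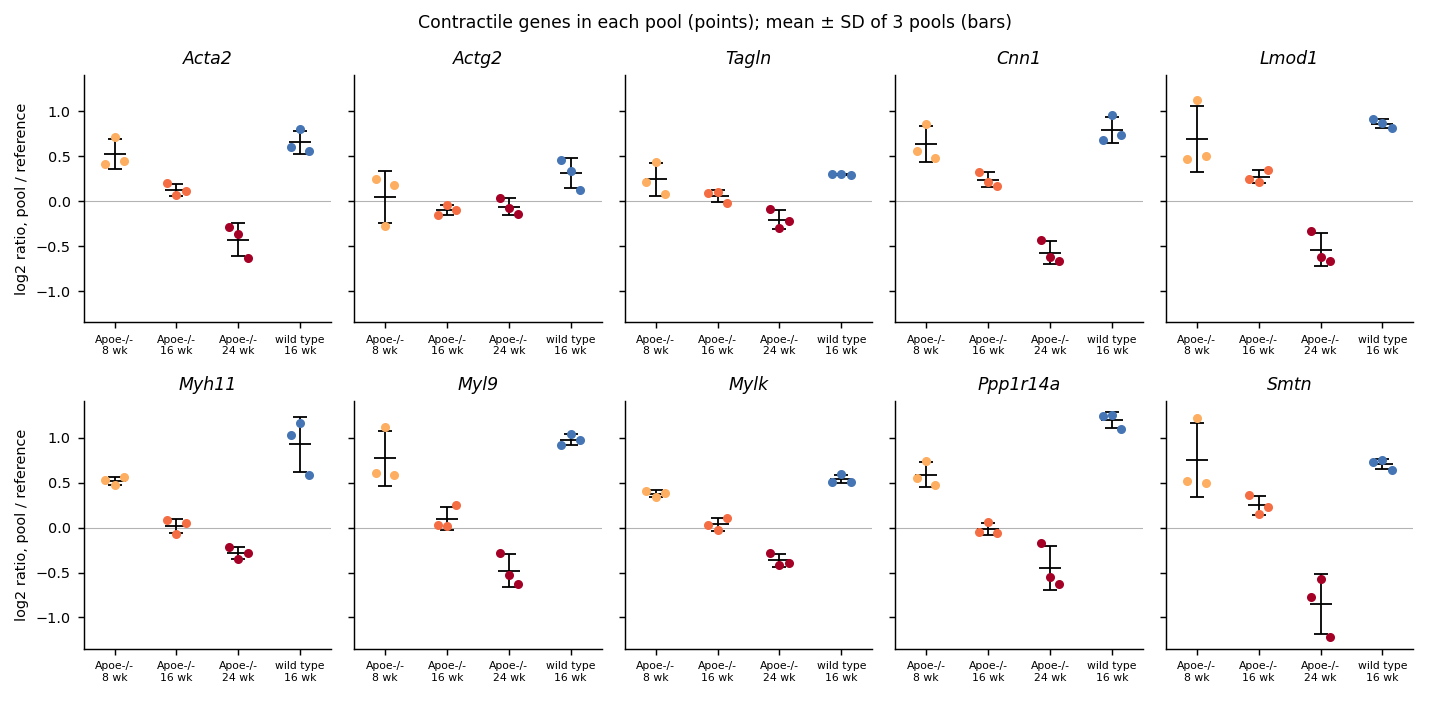
Log2 ratio of each pool to the Apoe-/- reference for the 10 contractile genes, with points for pools and bars for the mean and SD of 3 pools. Ratios of Ppp1r14a averaged 0.59, -0.02 and -0.45 at 8, 16 and 24 weeks and 1.19 in wild type, while those of Actg2 lay between -0.28 and 0.46 in all groups.

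Among the actins, Acta2, the main actin of arterial muscle, had ratios of 0.41, 0.71 and 0.45 at 8 weeks, 0.20, 0.07 and 0.11 at 16 weeks and -0.29, -0.36 and -0.63 at 24 weeks, against 0.60, 0.80 and 0.56 in wild type. The 24-week pools were the lowest and the 16-week pools lay between them and all others, while the 8-week and wild type pools overlapped. In limma, Acta2 was 2.10-fold lower at 24 weeks than in wild type (log2 difference -1.07 ± 0.11 SE, 95% confidence interval -1.32 to -0.83, adjusted p = 4.05e-05, n = 3 pools each). It was 1.44-fold lower at 16 weeks (-0.53 ± 0.11, adjusted p = 0.0115), a call that was lost when wild type pool 17 was left out (-0.45, adjusted p = 0.0587). Actg2, the enteric smooth muscle actin, had ratios of 0.25, -0.28 and 0.18 at 8 weeks, -0.15, -0.04 and -0.10 at 16 weeks and 0.04, -0.08 and -0.14 at 24 weeks, against 0.46, 0.34 and 0.13 in wild type. The 16-week and 24-week pools lay below every wild type pool and overlapped each other. No difference of Actg2 passed, and that between 24 weeks and wild type was -0.37 (confidence interval -0.66 to -0.08, adjusted p = 0.0699). That result depended on the fit. Actg2 passed at 24 weeks without pool 18 (-0.46, adjusted p = 0.0475). It passed without pool 2 (-0.37, adjusted p = 0.00895), which is in neither group compared and enters only through the shared spread. It also passed when only the groups compared were fitted (-0.37, adjusted p = 0.0317) or with array weights (-0.47, adjusted p = 0.000358). At 16 weeks Actg2 passed without pool 2 (-0.40, adjusted p = 0.0104), with only the groups compared (-0.40, adjusted p = 0.0383) and with array weights (-0.50, adjusted p = 0.000529).

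Of the proteins that bind the thin filament, all 4 were lower at 24 weeks than in wild type. Cnn1, calponin, had ratios of 0.56, 0.86 and 0.48 at 8 weeks, 0.33, 0.21 and 0.17 at 16 weeks and -0.43, -0.62 and -0.66 at 24 weeks, against 0.68, 0.96 and 0.74 in wild type. Its 3 diet times did not overlap each other, and the 8-week pools overlapped wild type. Cnn1 was 2.58-fold lower at 24 weeks than in wild type (-1.36 ± 0.11, adjusted p = 7.88e-06), and 1.47-fold below it at 16 weeks (-0.56 ± 0.11, adjusted p = 0.00886). Lmod1, leiomodin, which nucleates actin filaments, had ratios of 0.47, 1.12 and 0.50 at 8 weeks, 0.25, 0.21 and 0.35 at 16 weeks and -0.33, -0.62 and -0.66 at 24 weeks, against 0.91, 0.87 and 0.81 in wild type. Pool 2 stood above wild type, and pools 1 and 3 below it. Lmod1 was 2.64-fold lower at 24 weeks than in wild type (-1.40 ± 0.16, adjusted p = 6.46e-05). At 16 weeks it was 1.51-fold lower (-0.59 ± 0.16, adjusted p = 0.0328), and this call was lost when any of pools 4, 5, 6, 16, 17 or 18 was left out (highest adjusted p = 0.108).

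Smtn, smoothelin, a marker of fully contractile muscle cells, had ratios of 0.52, 1.22 and 0.50 at 8 weeks, 0.36, 0.15 and 0.23 at 16 weeks and -0.77, -0.57 and -1.22 at 24 weeks, against 0.73, 0.75 and 0.64 in wild type. The 24-week pools were far below the rest, and pool 2 was the highest of all 12. Smtn was 2.95-fold lower at 24 weeks than in wild type (-1.56 ± 0.20, adjusted p = 0.000158), while its difference at 16 weeks was -0.46 ± 0.20 (confidence interval -0.89 to -0.03) and did not pass (adjusted p = 0.19). The 16-week result depended on the fit. Smtn passed there without pool 2 (adjusted p = 0.0465), with only the groups compared (adjusted p = 0.0114) and with array weights (adjusted p = 0.0471). Tagln, transgelin, had average ratios of its 2 probes of 0.21, 0.44 and 0.08 at 8 weeks, 0.09, 0.10 and -0.02 at 16 weeks and -0.09, -0.30 and -0.22 at 24 weeks, against 0.30, 0.30 and 0.29 in wild type. The 24-week pools lay below all others. Tagln was 1.41-fold lower at 24 weeks than in wild type (-0.50 ± 0.09, adjusted p = 0.0025), an average over 2 probes that differed from each other, as given below. At 16 weeks its average differed by -0.24 and did not pass (adjusted p = 0.155). That difference passed without pool 2 (adjusted p = 0.0449) and with array weights (-0.22, adjusted p = 0.0154).

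In the thick filament, Myh11, the smooth muscle myosin heavy chain, had ratios of 0.53, 0.47 and 0.56 at 8 weeks, 0.08, -0.07 and 0.05 at 16 weeks and -0.22, -0.35 and -0.28 at 24 weeks, against 1.03, 1.16 and 0.58 in wild type. The 4 groups did not overlap, with pool 18 only just above the 8-week pools. Myh11 was 2.31-fold lower at 24 weeks than in wild type (-1.21 ± 0.12, adjusted p = 3.6e-05), and 1.88-fold below it at 16 weeks (-0.91 ± 0.12, adjusted p = 0.00074). At 8 weeks the difference was -0.40 ± 0.12 (confidence interval -0.68 to -0.13) and did not pass (adjusted p = 0.11), but without pool 18 it was -0.57 and passed (adjusted p = 0.00828). Myl9, the regulatory light chain, had ratios of 0.61, 1.12 and 0.58 at 8 weeks, 0.03, 0.02 and 0.25 at 16 weeks and -0.28, -0.53 and -0.63 at 24 weeks, against 0.92, 1.04 and 0.97 in wild type. Pool 2 alone of the 8-week pools reached the wild type range. Myl9 was 2.74-fold lower at 24 weeks than in wild type (-1.46 ± 0.14, adjusted p = 2.45e-05), and 1.83-fold below it at 16 weeks (-0.88 ± 0.14, adjusted p = 0.00236).

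Of the genes that set the phosphorylation of the light chain, Mylk, the kinase, had average ratios of its 3 probes of 0.41, 0.34 and 0.38 at 8 weeks, 0.03, -0.03 and 0.11 at 16 weeks and -0.28, -0.42 and -0.39 at 24 weeks, against 0.51, 0.59 and 0.51 in wild type. The 4 groups did not overlap. Mylk was 1.87-fold lower at 24 weeks than in wild type (-0.90 ± 0.07, adjusted p = 3.06e-06), and 1.42-fold below it at 16 weeks (-0.50 ± 0.07, adjusted p = 0.00059). Ppp1r14a, the phosphatase inhibitor, had ratios of 0.55, 0.74 and 0.47 at 8 weeks, -0.05, 0.06 and -0.06 at 16 weeks and -0.17, -0.55 and -0.63 at 24 weeks, against 1.24, 1.25 and 1.09 in wild type. Its 4 groups did not overlap either, and its wild type pools stood clear of all Apoe-/- pools. Ppp1r14a was 3.11-fold lower at 24 weeks than in wild type (-1.64 ± 0.12, adjusted p = 2.77e-06). Against the same wild type pools it was 2.31-fold lower at 16 weeks (-1.21 ± 0.12, adjusted p = 7.94e-05), and at 8 weeks the difference was -0.61 ± 0.12, or 1.52-fold (adjusted p = 0.0239). The 8-week call was lost when pool 3, 16 or 17 was left out (highest adjusted p = 0.112). Ppp1r14a lies on chromosome 7, as does Apoe. Between Apoe-/- groups alone it was 2.04-fold lower at 24 than at 8 weeks (-1.03 ± 0.12, adjusted p = 0.000142).

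**Figure D2:**
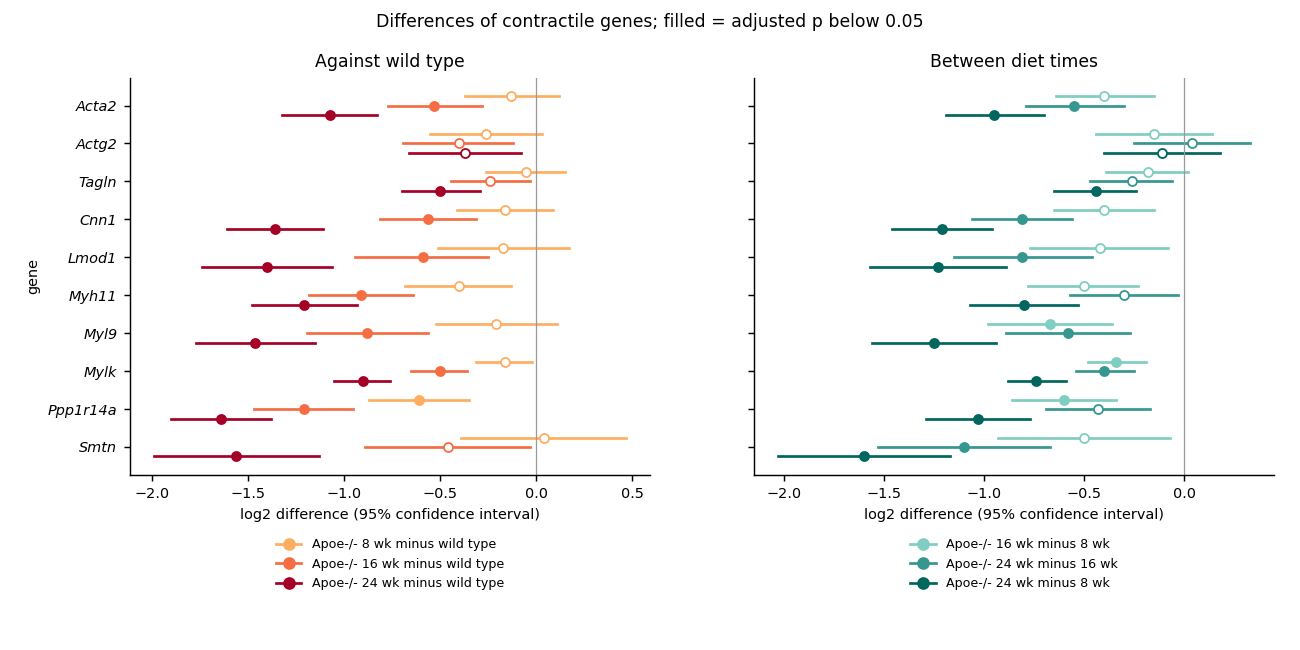
Log2 differences of the 10 contractile genes with 95% confidence intervals, each Apoe-/- group minus wild type on the left and the 3 pairs of diet times on the right; filled points have an adjusted p below 0.05. At 24 weeks against wild type the differences run from -1.64 (Ppp1r14a) to -0.37 (Actg2), and all but that of Actg2 are filled.

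Set side by side against the same wild type pools, the 10 genes had a median difference of -0.17 at 8 weeks, -0.54 at 16 weeks and -1.29 at 24 weeks, where the median over all 19705 genes was -0.01, -0.03 and -0.04. At 8 weeks 1 of 10 was lower (Ppp1r14a), against 0.736% of all genes. At 16 weeks 7 of 10 were lower, against 4.07%, and Tagln, Smtn and Actg2 did not pass. At 24 weeks 9 of 10 were lower, against 11.3%. All 3 Apoe-/- pools lay below all 3 wild type pools in 3 members at 8 weeks (10.5% of all genes), in 10 at 16 weeks (17.9%) and in 10 at 24 weeks (29.2%). With quantile normalization, 3 members were lower at 16 weeks, against the 7 above. The calls lost were those of Cnn1 (-0.28, adjusted p = 0.274), Acta2 (-0.36, adjusted p = 0.287), Lmod1 (-0.32, adjusted p = 0.294) and Myl9 (-0.70, adjusted p = 0.0509). With the widest probe of a gene in place of the average, Acta2 (-0.30, adjusted p = 0.28) and Mylk (-0.53, adjusted p = 0.154) did not pass at 16 weeks.

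Within the Apoe-/- arch, the contractile genes fell over the diet as well. The moderated F test over the 3 diet times passed for 9 of the 10 genes, all but Actg2 (F = 0.7, adjusted p = 0.673), against 18.3% of all genes. Adjusted p of the 9 ran from 0.000131 (Mylk) to 0.0185 (Tagln), and Tagln did not pass without pool 11 (adjusted p = 0.0908) or without pool 12 (adjusted p = 0.0741). Without pools 2 and 18 together, Actg2 passed (adjusted p = 0.0261). Group means stood in the order 8, 16, 24 weeks from high to low in 9 members, against 35.2% of all genes. The pools themselves held that order without overlap in 8 members, all but Tagln and Actg2, against 3.33% of all genes. With wild type placed above 8 weeks, the order of means held in 8 members, all but Smtn and Actg2, against 11.3% of all genes. For Acta2, Tagln and Mylk that order rests on the average of their probes. With the widest probe of each, the 8-week mean stood above wild type, by 0.051, 0.067 and 0.25.

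Between 16 and 8 weeks, 3 of 10 members fell, against 0.507% of all genes, and the median difference was -0.41. They were Myl9 (-0.67 ± 0.14, adjusted p = 0.0331), Ppp1r14a (-0.60 ± 0.12, adjusted p = 0.0231) and Mylk (-0.34 ± 0.07, adjusted p = 0.0226), which are the light chain, the inhibitor of its phosphatase and its kinase. None of these 3 calls held in every fit that left out 1 pool, and no member passed without pool 4 or without pool 5, where 8 and 6 members had an unadjusted p below 0.05 in limma. The call of Mylk came from the average of its 3 probes, none of which passed alone. Those probes gave -0.27 (adjusted p = 0.65), -0.78 (adjusted p = 0.108) and 0.03 (adjusted p = 0.889). Between 24 and 16 weeks, 6 of 10 fell, against 1.96% of all genes, with a median of -0.49. The 6 were Smtn (-1.10 ± 0.20, adjusted p = 0.0125), Cnn1 (-0.81 ± 0.11, adjusted p = 0.00583), Lmod1 (-0.81 ± 0.16, adjusted p = 0.0164), Myl9 (-0.58 ± 0.14, adjusted p = 0.0378), Acta2 (-0.55 ± 0.11, adjusted p = 0.0201) and Mylk (-0.40 ± 0.07, adjusted p = 0.01). Leaving out pool 4 or pool 12 left 1 call, and leaving out pool 6 or pool 11 left 2. Leaving out pools 3 and 6 together, which carry an asterisk of unstated meaning in the labels, left 1. Cnn1 alone passed in every fit that left out 1 pool. Other fits added calls. Myh11, Tagln and Ppp1r14a passed with quantile normalization (adjusted p = 0.0127, 0.00644 and 0.0115). These genes also passed with array weights (adjusted p = 0.0112, 0.00358 and 0.00294).

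Between 24 and 8 weeks, 9 of 10 fell, against 14.1% of all genes, with a median of -0.99. Smtn was 3.03-fold lower (-1.60 ± 0.20, adjusted p = 0.000225), Myl9 2.38-fold (-1.25 ± 0.14), Lmod1 2.35-fold (-1.23 ± 0.16) and Cnn1 2.31-fold (-1.21 ± 0.11). Acta2 was 1.93-fold lower, Myh11 1.74-fold, Mylk 1.67-fold and Tagln 1.36-fold. All 9 calls held whichever pool was left out. Pools did not overlap, with the later time lower, in 8 members between 16 and 8 weeks (7.63% of all genes), in 9 between 24 and 16 weeks (21.0%) and in 9 between 24 and 8 weeks (23.9%). Actg2 differed by -0.11 (confidence interval -0.40 to 0.18, adjusted p = 0.56).

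The share of the whole difference between 24 weeks and wild type that was present at 16 weeks varied among the members, as a description on the log2 scale without a test. It was 75.3% for Myh11, 73.8% for Ppp1r14a, 60.1% for Myl9 and 55.8% for Mylk. It was 48.9% for Acta2, 47.6% for Tagln, 42.5% for Lmod1 and 40.9% for Cnn1. Probes of a gene differed in it: the differences at 16 and 24 weeks were -0.92 and -1.12 for probe 1 of Mylk but -0.53 and -1.39 for probe 2, and -0.30 and -1.07 for probe 1 of Acta2 but -0.75 and -1.08 for probe 2. At 8 weeks the share was 37.0% for Ppp1r14a and 33.5% for Myh11, and between 10.9% (Tagln) and 18.2% (Mylk) for the other 6. Those of Acta2, Tagln and Mylk average probes that differed in sign at 8 weeks against wild type. The differences were 0.05 and -0.30 for the probes of Acta2, and 0.07 and -0.18 for those of Tagln. For probes 1, 2 and 3 of Mylk they were -0.65, 0.25 and -0.09. For Smtn and Actg2 the means did not fall steadily, and no share was computed.

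Probes of the same gene did not always agree. The 2 probes of Acta2 gave nearly the same difference between 24 weeks and wild type, -1.07 (adjusted p = 0.000429 over all probes) and -1.08 (adjusted p = 6.31e-05). At 16 weeks they gave -0.30 (confidence interval -0.63 to 0.02, adjusted p = 0.326) and -0.75 (adjusted p = 0.00235). Probe 1 of Tagln had ratios of 0.38, 1.02 and 0.34 at 8 weeks, 0.13, 0.14 and 0.05 at 16 weeks and -0.12, -0.52 and -0.46 at 24 weeks, against 0.54, 0.46 and 0.54 in wild type. This probe followed the other contractile genes, and its difference at 24 weeks was -0.88 (adjusted p = 0.00313). Probe 2 of Tagln lay between -0.19 and 0.14 in all 12 pools and differed by -0.12 (confidence interval -0.29 to 0.05, adjusted p = 0.344).

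The 3 probes of Mylk gave 3 patterns. Probe 1 had ratios of 0.52, -0.32 and 0.53 at 8 weeks, -0.09, -0.09 and 0.10 at 16 weeks and -0.29, -0.15 and -0.24 at 24 weeks, against 1.03, 1.16 and 0.49 in wild type. Here pool 2 was lower than every 24-week pool. Probe 2 had ratios of 0.59, 1.35 and 0.55 at 8 weeks, -0.02, -0.03 and 0.21 at 16 weeks and -0.51, -1.05 and -0.87 at 24 weeks, against 0.44, 0.53 and 0.76 in wild type, and here pool 2 was the highest of all. The close agreement of the 8-week pools in the gene's average (0.34 to 0.41) thus joins probes that disagree in pool 2. Between 24 weeks and wild type, probe 1 differed by -1.12 (adjusted p = 0.005) and probe 2 by -1.39 (adjusted p = 0.000664). Probe 3 lay between -0.07 and 0.29 in all pools and differed by -0.20 (confidence interval -0.38 to -0.03, adjusted p = 0.112). At 16 weeks probe 1 alone of the 3 passed (-0.92, adjusted p = 0.0305), but not without pool 4, 5, 6, 16 or 17 (adjusted p up to 0.137) or with quantile normalization (adjusted p = 0.0618), and probe 2 passed without pool 2 (-0.53, adjusted p = 0.0325). Between 24 and 8 weeks probe 2 alone passed (-1.64, adjusted p = 0.000332). Without pool 2, probe 1 passed there too (-0.75, adjusted p = 0.0114), against -0.47 with all pools, as it did with quantile normalization (-0.69) and array weights (-0.65). Of all probes tested, 2.76% were lower at 16 weeks and 7.79% at 24 weeks against wild type, and 11.1% at 24 against 8 weeks. Which parts of the transcripts the probes match is not stated in the labels, and the data hold no signal level that would show whether a probe near 0 lay above background.

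**Figure D3:**
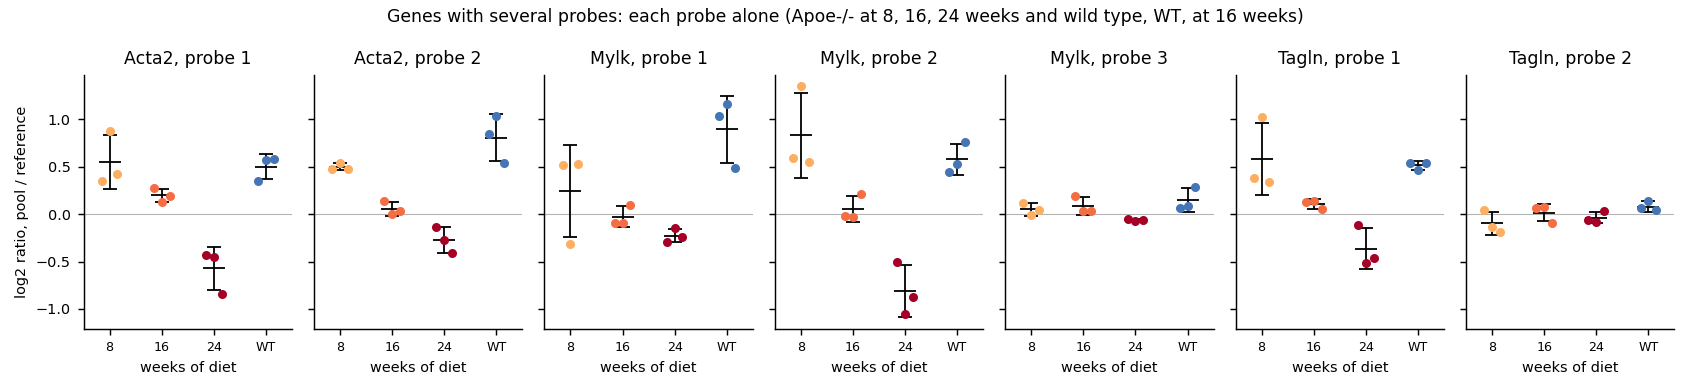
Log2 ratio of each pool to the reference for each probe of Acta2, Mylk and Tagln, with points for pools and bars for the mean and SD of 3 pools. Probe 3 of Mylk and probe 2 of Tagln stay between -0.19 and 0.29, while the other 5 probes drop to between -0.12 and -1.05 at 24 weeks.

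Pool 2, of 2 mice, was the highest of the 8-week pools in 7 of 10 members and the lowest in the other 3, Actg2, Myh11 and Mylk. Pool 10 was the highest of the 24-week pools in 9 members, and pool 12 the lowest in 7. Pool 18 was the lowest wild type pool in 7 members and pool 17 the highest in 8. Across the 12 pools, each member was set against the mean of the other 9, as a description in which the groups and the reference are shared. Pearson's r was 0.987 for Acta2, 0.983 for Myl9, 0.978 for Cnn1, 0.977 for Mylk and 0.971 for Lmod1. It was between 0.918 and 0.954 for Ppp1r14a, Tagln, Myh11 and Smtn, and 0.509 for Actg2.

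Relatives of the contractile proteins were followed in lists of other genes. In these lists Cald1, Calm3, Mef2c and Myh10 had 2 probes each and Tpm3 had 3, and their values are averages of probes that are not shown alone. Of 21 other genes of the thin filament, 3 rose and 2 fell at 24 weeks against wild type (median -0.03), where 11.6% of all genes rose and 11.3% fell. Both counts are near those shares. Tpm4, a tropomyosin of the cytoskeleton, had ratios of 0.20, 0.35 and 0.34 at 24 weeks, against -1.02, -0.95 and -0.90 in wild type, and rose 2.38-fold (1.25 ± 0.12, adjusted p = 2.75e-05). Tpm3, another tropomyosin, rose 1.40-fold (adjusted p = 0.000359), and Tmod3, a tropomodulin that caps actin filaments, 1.82-fold (adjusted p = 0.015). Cald1, caldesmon, which restrains actin and myosin in smooth muscle, fell 1.35-fold (-0.44 ± 0.08, adjusted p = 0.00226). The other that fell, named after its values were seen, was Tagln3 (-0.26, adjusted p = 0.0385). Tmod3 no longer passed without pool 11 (adjusted p = 0.0629) or without pool 18 (adjusted p = 0.0612).

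Of 11 other myosin genes measured, 1 rose and 3 fell at 24 weeks against wild type (median 0.53), beside 11.6% and 11.3% of all genes. The median fell among light chains of striated muscle, named after their values were seen. These were Myl7 (1.57), Myl3 (0.92), Myl2 (0.63), Myl4 (0.53) and Myl1 (0.53), and none passed. Pool means of the list overlapped, from -0.84 to -0.03 at 24 weeks and from -0.95 to -0.28 in wild type. The non-muscle heavy chain Myh9 had ratios of 0.20, 0.33 and 0.15 at 24 weeks, against -0.92, -0.87 and -0.91 in wild type, and rose 2.18-fold (1.12 ± 0.08, adjusted p = 3.03e-06). The non-muscle heavy chain Myh10 had ratios of -0.41, -0.31 and -0.38 at 24 weeks, against 0.68, 0.67 and 0.54 in wild type, and fell 1.99-fold (confidence interval of the log2 difference -1.22 to -0.78, adjusted p = 3.05e-05). The 2 non-muscle heavy chains thus moved in opposite directions, with Myh10 on the side of Myh11. The essential light chains Myl6 and Myl6b fell 1.42-fold (adjusted p = 0.0135) and 1.46-fold (adjusted p = 0.0462). Myl6b passed in none of the fits that left out 1 pool of the 16-week, 24-week or wild type groups, where its adjusted p ran up to 0.158, and Myl6 did not pass without pool 12 (adjusted p = 0.0653) or without pool 17 (adjusted p = 0.0602).

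Of 18 other genes measured that control the phosphorylation of myosin, 8 fell and 2 rose at 24 weeks against wild type (median -0.31), beside 11.3% and 11.6% of all genes. Ppp1r12a, the targeting subunit of myosin phosphatase, had ratios of -0.55, -0.33 and -0.44 at 24 weeks, against 0.82, 0.89 and 0.48 in wild type, and fell 2.25-fold (-1.17 ± 0.13, adjusted p = 7.68e-05). Its relative Ppp1r12c fell 1.95-fold (adjusted p = 2.83e-05). Mrvi1, a target of cyclic GMP-dependent kinase at calcium stores, had ratios of -0.32, -0.35 and -0.77 at 24 weeks, against 0.82, 0.98 and 0.65 in wild type, and fell 2.45-fold (-1.29 ± 0.12, adjusted p = 1.84e-05). Genes of the switch and of its reversal thus fell in the same pools. Calm3, 1 of the calmodulin genes, rose 1.87-fold (0.90 ± 0.06, adjusted p = 1.51e-06), with ratios of 0.07, 0.03 and -0.01 at 24 weeks, against -0.92, -0.89 and -0.81 in wild type. Ppp1r14b, a relative of Ppp1r14a named after its values were seen, rose as well (0.79, adjusted p = 0.000156). The ratios of Calm3 at 8 weeks, -0.16, -0.17 and -0.20, were also above every wild type pool (difference 0.70, adjusted p = 0.000546), and Calm3, Mrvi1 and Ppp1r12c lie on chromosome 7 with Apoe.

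The list of dense bodies, intermediate filaments and adhesion sites, which anchor the filaments to the cell and its surroundings, was lower as well. Of 37 genes measured, 3 fell at 8 weeks against wild type, 16 at 16 weeks and 25 at 24 weeks, where 0.736%, 4.07% and 11.3% of all genes fell. The medians were -0.17, -0.46 and -0.59. Pdlim3, a partner of alpha-actinin, had ratios of -0.37, -0.50 and -0.58 at 24 weeks, against 0.94, 1.06 and 0.82 in wild type, and fell 2.68-fold (-1.42 ± 0.08, adjusted p = 6.84e-07). Pgm5, aciculin, a protein of adherens junctions of muscle, fell 2.67-fold (adjusted p = 1.15e-05). The alpha-sarcoglycan Sgca fell 1.96-fold (adjusted p = 2.83e-05) and Fermt2, kindlin 2, which activates integrins, fell 1.95-fold (adjusted p = 4.21e-06). With quantile normalization 0 of the 37 passed at 8 weeks, 4 at 16 weeks and 25 at 24 weeks against wild type. Of all genes, 8, 896 and 5207 passed in these comparisons with that normalization.

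**Figure D4:**
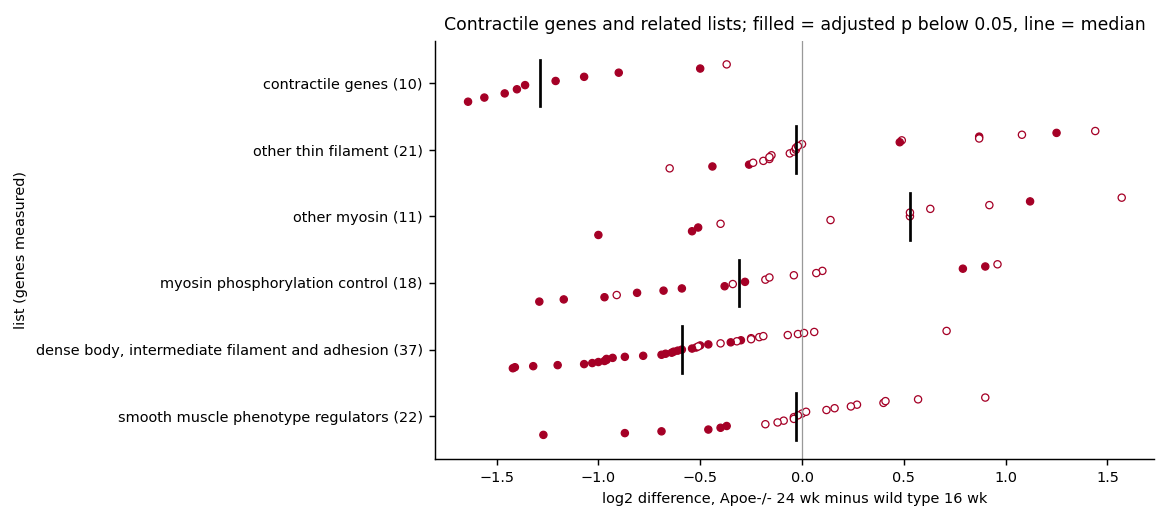
Log2 differences between Apoe-/- arches at 24 weeks and wild type at 16 weeks, with a point for each gene measured, filled where the adjusted p is below 0.05, and a line at the median of each list. The median is -1.29 for the contractile genes and -0.59 for the dense body list, while that of the other thin filament genes is -0.03.

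Among 22 measured genes of known regulators of smooth muscle phenotype, 6 fell at 24 weeks against wild type and 16 did not pass (median -0.03), where 11.3% of all genes fell. Heyl, a Notch target, fell 2.41-fold (-1.27 ± 0.24, adjusted p = 0.00287). Foxo4, a factor that binds myocardin, fell 1.62-fold (adjusted p = 0.00756), Mef2c 1.38-fold (adjusted p = 0.00372) and the growth factor Tgfb1 1.29-fold (-0.37 ± 0.06, adjusted p = 0.000591). Tgfb1 lies on chromosome 7, as does Apoe. Myocd, which encodes myocardin, was singled out here after its values were seen. Its ratios were 0.26, -0.53 and 0.29 at 8 weeks, -0.07, -0.11 and -0.23 at 16 weeks and -0.16, 0.02 and -0.05 at 24 weeks, against 1.17, 1.08 and 0.15 in wild type. Pool 18 lay near the Apoe-/- pools, and the 3 diet times overlapped. Myocd fell 1.82-fold at 24 weeks (-0.87 ± 0.26, adjusted p = 0.0357), a call lost when any of 7 pools was left out (highest adjusted p = 0.125). Srf, the partner of myocardin, stood on this list of regulators, and no result for it alone is given here.

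The genes whose ratios followed the mean of the 10 contractile genes most closely across the 12 pools were Sntg2 (Pearson's r = 0.991), Inafm1 (0.990), Pcp4l1 (0.988), Col18a1 (0.988), Ncald (0.987) and Dmwd (0.987). Of these, Inafm1 and Dmwd lie on chromosome 7, as does Apoe. Sntg2, a syntrophin, had ratios of 0.73, 0.97 and 0.80 at 8 weeks, 0.30, 0.21 and 0.16 at 16 weeks and -0.46, -0.63 and -0.71 at 24 weeks, against 0.97, 1.10 and 0.89 in wild type. Pool 2 lay within the wild type range, as it did for Acta2 and Cnn1. The most opposite genes were Cd14, Pgap6 and Vsir, each with r = -0.985. Cd14, a receptor of monocytes and macrophages, had ratios of -1.50, -1.92 and -1.96 at 8 weeks, -0.90, -0.62 and -0.91 at 16 weeks and 0.38, 0.82 and 0.65 at 24 weeks, against -2.15, -2.52 and -2.05 in wild type. These 9 genes were chosen by this likeness, which describes 4 groups of pools that share a reference.

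**Figure D5:**
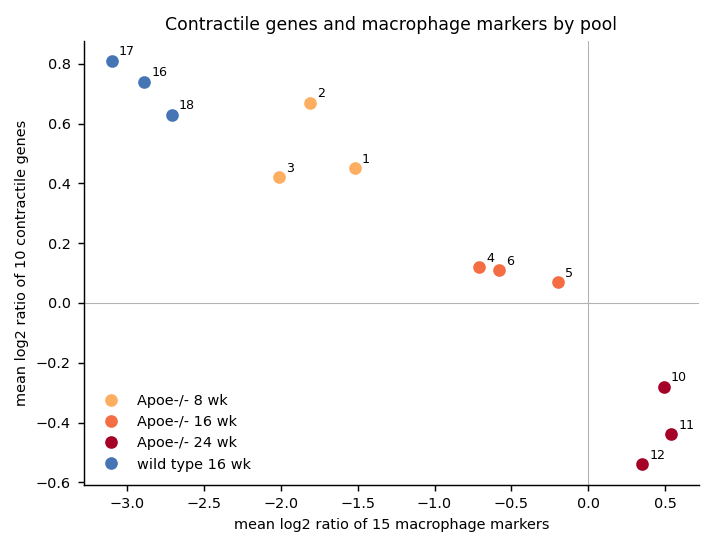
Mean log2 ratio of the 10 contractile genes against that of 15 macrophage markers, with a point for each numbered pool. Wild type pools lie at 0.63 to 0.81 with macrophage means of -3.10 to -2.71, and the 24-week pools at -0.54 to -0.28 with macrophage means of 0.35 to 0.54.

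Of the 15 macrophage markers, 8 rose at 8 weeks, 12 at 16 weeks and 14 at 24 weeks against wild type, with median differences of 0.86, 2.51 and 3.64. Of all genes, 1.76%, 6.03% and 11.6% rose in these comparisons. Within wild type and within the 16-week group, the order of the 3 pools by contractile mean was the reverse of their order by macrophage mean. Within the 24-week group, pool 12 had the lowest mean of both, and within the 8-week group pool 2 had the highest contractile mean and the middle macrophage mean. Endothelial markers had pool means between -0.01 and 0.25 at 8 weeks, between 0.01 and 0.08 at 16 weeks and between -0.10 and 0.02 at 24 weeks, against -0.45 to -0.23 in wild type. Of 11 such markers measured, 4 rose at 24 weeks against wild type, beside 11.6% of all genes, and 7 did not pass. Cardiac muscle markers had pool means between -1.79 and -0.16 at 8 weeks, between -1.42 and 0.58 at 16 weeks and between -1.55 and 0.56 at 24 weeks, against -1.99 to -0.49 in wild type. All 4 groups overlapped in this mean. Fibroblast markers had pool means between -0.53 and -0.36 at 8 weeks, between -0.14 and 0.09 at 16 weeks and between 0.03 and 0.13 at 24 weeks, against -0.62 to -0.25 in wild type. Of the 10 fibroblast genes, 4 rose at 24 weeks against wild type (Lum 3.41, Col3a1 1.28, Col1a1 1.05 and Dcn 0.88), 2 fell (Dpep1 -0.85 and Pi16 -0.57) and 4 did not pass. Of all genes, 11.6% rose and 11.3% fell in that comparison. Adipocyte markers had pool means between 0.30 and 0.67 at 8 weeks, between -0.09 and 0.21 at 16 weeks and between -0.26 and -0.08 at 24 weeks, against -0.54 to -0.11 in wild type. Over the diet, but not against wild type, their means ran downward like those of the contractile genes. At 24 against 8 weeks 3 of 8 fell, beside 14.1% of all genes, namely Plin1 (-0.75), Cidec (-0.97) and Cidea (-1.70). Markers of cartilage had pool means between -1.75 and -0.82 at 8 weeks, between -0.73 and -0.27 at 16 weeks and between 0.13 and 0.37 at 24 weeks, against -2.04 to -1.59 in wild type. Of these 7 genes, 4 rose at 24 weeks against wild type, beside 11.6% of all genes. Spp1, which macrophages also express, rose by 5.63 on the log2 scale, and Ibsp, which bone cells also express, by 4.97. Col2a1 rose by 0.83 and Acan by 0.76, while Sox9 (-0.29), Comp (0.53) and Chad (2.55) did not pass. These marker genes were named after their values were seen. The part of these cells in the contractile ratios was not tested.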

How the data were processed

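The arrays compared each pool of aortic arch RNA with a common Apoe-/- reference. RNA was purified on spin columns with DNase and amplified with an aminoallyl procedure, per the labels' protocols. The authors deposited log10 ratios, with 1 value per probe and array. Scanner, background correction, normalization and filters: not given in the sources used here. Base 10 was worked out from the values, the direction (pool over reference) was taken from the dyes in the labels and checked on Apoe, and multiplying by 3.322 gave log2 ratios. No intensities are held, so levels and distance to background are unknown, and a fold near background can be too small. Of 39556 probes, 23283 carried 1 gene symbol, 0 several and 16273 none. Symbols were updated through a RefSeq gene table (GRCm38.p6), with 14510 of 20551 current, 5952 replaced, 78 of several genes kept and 11 not found and kept. Averaging the probes of a gene left 19705 genes with a value on every array, and 39154 probes were also tested alone.

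Groups were compared with limma 3.58.1 under R 4.3.3 (functions lmFit and eBayes, 1 mean per group over all 12 arrays, 8 residual degrees of freedom), with Benjamini-Hochberg adjustment over all genes or probes tested and a threshold of 0.05. Errors are standard errors from this fit unless given as SD, and p-values are two-sided. Pools held different mice, and 3 arrays per group limit the precision. There were 6 comparisons, 3 of an Apoe-/- group with wild type and 3 between diet times, and the 3 times were also tested together by a moderated F test. The fit was tested on simulated data. The members and lists were chosen with earlier results of these data known. Beyond the members, the genes named were up to 4 of each pathway list with the lowest adjusted p below the threshold in any comparison, the 6 genes most like the members and the 3 least like them, and Apoe. Myocd, Tagln3, Ppp1r14b, the light chains of striated muscle and the fibroblast, adipocyte and cartilage genes named were added after their values were seen. Alternatives left out each pool, fitted only the groups compared, left out pools 3 and 6 (marked in the labels), or used quantile normalization, median centring, array weights, robust eBayes, the widest probe of a gene or each probe alone. Leaving out pools 2 and 18, which had the widest ratios of their groups, was chosen after seeing the data.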

Additional observations from a re-analysis of the deposited data

How the results depend on the processing

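No paired analysis was possible because the groups compared share no pool numbers. Against wild type at 24 weeks, and between 24 and 8 weeks, 9 of the 10 contractile genes were lower, and 9 to 10 and 9 to 9 were when 1 pool was left out. The other counts of lower members ran over 0 to 2 (8 weeks against wild type, 1 in all), 5 to 10 (16 weeks against wild type, 7), 0 to 4 (16 against 8 weeks, 3) and 1 to 8 (24 against 16 weeks, 6). The counts of all genes changed, in limma, were 492 (137 without pool 17 to 760 without pool 18), 1991 (1231 without pool 17 to 3052 without pool 2) and 4504 (3105 to 6237) at 8, 16 and 24 weeks against wild type, and 472 (167 without pool 5 to 758 without pool 1), 1172 (119 without pool 4 to 2572 without pool 2) and 5676 (2955 without pool 11 to 7020 without pool 1) for 16 against 8, 24 against 16 and 24 against 8 weeks. Fitting only the groups compared gave 29 genes and 0 members at 8 weeks against wild type, 0 genes and 0 members for 16 against 8 weeks (1914 genes and 7 members at an unadjusted p under 0.05), 3328 for 24 against 16 and 3266 for 24 against 8 weeks. Without pools 3 and 6 there were 310 genes and 0 members at 8 weeks against wild type, 153 and 0 for 16 against 8, and 200 and 1 for 24 against 16 weeks. Without pools 2 and 18, 1359 genes and 2 members passed at 8 weeks and 3927 genes at 16 weeks against wild type, and 3970 for 24 against 16 weeks. Quantile normalization gave 8 genes and 0 members at 8 weeks, 896 and 3 at 16 weeks against wild type, 1 and 0 for 16 against 8, and 4873 genes for 24 against 16 weeks. At an unadjusted p under 0.05 these counts of 0 members were 2 and 3 with quantile normalization, 3 and 9 without pools 3 and 6, and 2 for only the groups compared at 8 weeks. Array weights gave 2 members at 8 weeks and 5604, 8180 and 6296 genes at 16 and 24 weeks against wild type and for 24 against 16 weeks. The share of genes that rose among those changed was 70.5%, 59.7% and 50.7% at 8, 16 and 24 weeks against wild type, and 78.8% and 67.0% for 16 against 8 and 24 against 16 weeks. With quantile normalization it was 0.0% and 49.3% at 8 and 16 weeks against wild type and 53.8% for 24 against 16 weeks, and the 1 gene that passed for 16 against 8 weeks rose. Median centring gave 60.7% at 24 weeks. The cause of these shifts was not tested.

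Directions turned in these differences, none of which passed. At 8 weeks against wild type, Acta2, Tagln and Mylk stood at 0.051, 0.067 and 0.25 with the widest probe and Tagln at 0.029 without pools 3 and 6. Smtn stood at -0.23 without pools 2 and 18, -0.003 with quantile normalization and -0.15 with array weights; probe 1 of Acta2 at -0.075, -0.01 and -0.032 under these 3; probe 1 of Tagln at -0.14 without pools 2 and 18 and -0.065 with array weights; and probe 3 of Mylk at 0.0085 without pools 2 and 18. At 16 weeks against wild type probe 3 of Mylk stood at 0.0078 without pools 2 and 18, 0.013 with quantile normalization and 0.032 with array weights, and against 8 weeks at -0.00072 without pools 2 and 18. With 1 pool left out, values at 8 weeks against wild type ran from -0.15 to 0.029 (Tagln), -0.2 to 0.16 (Smtn), -0.11 to 0.15 (Acta2 probe 1), -0.0096 to 0.39 (Mylk probe 2) and -0.15 to 0.19 (Tagln probe 1). Those of Mylk probe 3 ran from -0.12 to 0.0078 at 16 weeks against wild type and from -0.024 to 0.068 against 8 weeks, and those of Actg2 from -0.012 to 0.078 for 24 against 16 weeks. Robust eBayes changed no call or direction among 143 results.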
